A study of Mus musculus with 30 samples.

Results

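The glycolysis genes described here are Slc2a1, Hk1, Hk2, Hk3, Pfkl, Pfkp, Aldoa, Pgk1, Pkm and Ldha. They were taken by name, as the rows of the count table of all libraries whose Ensembl identifiers map to these symbols, and make up 10 of its 54146 gene identifiers. All 10 passed the filter on low counts in every comparison below. RNA-seq was performed on clones of J774A.1, a mouse macrophage-like cell line, that were left untreated (UT) or treated for 4 h with recombinant mouse IFNG, the type II interferon, at 100 ng/mL. The clones were 3 wild-type (WT) clones, WT1, WT2 and WT3, which were expanded from single cells and not electroporated, and 2 knockout (KO) clones, KO1 and KO2, in which CRISPR editing removed B2_Mm2.Dicer1, a short interspersed element in the first intron of Dicer1, from both alleles. Each clone and treatment has 3 libraries, 30 in all. The labels do not pair WT2 and WT3 with the column headings of the counts (wtc1 and wtc3), and this pairing was inferred from the deposited tables of single clones, where the table for WT2 holds the wtc1 columns and that for WT3 the wtc3 columns. Genotype cannot be told apart from clone or from the editing procedure, since each clone is a single line and only the KO clones were edited. Nothing in the labels says that the 3 libraries of a group came from separate cultures, so the spread between them, which enters the p-values, may be technical.

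Glycolysis splits glucose into pyruvate in the cytosol. Slc2a1 encodes GLUT1, the facilitative transporter that brings glucose into most cells. Hexokinases (Hk1, Hk2 and Hk3) trap glucose by phosphorylating it, and phosphofructokinase (Pfkl, the liver type, and Pfkp, the platelet type) catalyses the committed step. Aldolase (Aldoa), phosphoglycerate kinase (Pgk1) and pyruvate kinase (Pkm) act further down, and lactate dehydrogenase A (Ldha) turns pyruvate into lactate and returns NAD+ to the pathway. Activated macrophages are known for raised glucose uptake and lactate release, and many of these genes are known targets of the hypoxia-inducible factor HIF-1.

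Promoter windows are shown for members that rose with IFNG (Slc2a1, Hk2 and Pfkp) and for members whose change did not pass the test over all clones (Pgk1 and Ldha), so that the letters around the start of each can be set beside its response. They are RefSeq sequences of build GRCm38.p6, from 250 bases before to 50 bases after the annotated transcript start, written 5′ to 3′ on the gene's strand. Capitals mark every match, on either strand, to ACGTG or GCGTG (the core letters of HIF-1 sites), CACGTG (the E-box, which contains ACGTG), TTCNNNGAA (the gamma-interferon activation site, GAS) or GAAANNGAA (the core of the interferon-stimulated response element, ISRE).
Slc2a1, chr4:119108495-119108794, plus strand: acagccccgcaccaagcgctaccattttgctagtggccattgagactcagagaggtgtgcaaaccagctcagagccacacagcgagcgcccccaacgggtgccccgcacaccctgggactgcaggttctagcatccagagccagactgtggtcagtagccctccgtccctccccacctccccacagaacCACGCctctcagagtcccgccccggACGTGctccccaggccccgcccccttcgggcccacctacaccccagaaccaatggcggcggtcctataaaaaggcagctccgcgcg
Hk2, chr6:82774405-82774704, minus strand: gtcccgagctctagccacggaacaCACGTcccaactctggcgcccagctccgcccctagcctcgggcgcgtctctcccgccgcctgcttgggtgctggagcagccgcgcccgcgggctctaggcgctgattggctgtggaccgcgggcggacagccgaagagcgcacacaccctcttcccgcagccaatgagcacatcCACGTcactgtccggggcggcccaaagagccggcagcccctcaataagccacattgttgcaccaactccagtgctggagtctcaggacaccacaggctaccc
Pfkp, chr13:6648722-6649021, minus strand: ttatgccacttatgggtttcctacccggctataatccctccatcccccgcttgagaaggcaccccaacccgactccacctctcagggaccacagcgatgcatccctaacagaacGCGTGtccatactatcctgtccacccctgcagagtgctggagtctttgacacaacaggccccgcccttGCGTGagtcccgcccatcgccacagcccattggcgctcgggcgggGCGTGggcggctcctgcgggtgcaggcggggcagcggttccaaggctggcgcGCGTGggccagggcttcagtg
Pgk1, chrX:106186850-106187149, plus strand: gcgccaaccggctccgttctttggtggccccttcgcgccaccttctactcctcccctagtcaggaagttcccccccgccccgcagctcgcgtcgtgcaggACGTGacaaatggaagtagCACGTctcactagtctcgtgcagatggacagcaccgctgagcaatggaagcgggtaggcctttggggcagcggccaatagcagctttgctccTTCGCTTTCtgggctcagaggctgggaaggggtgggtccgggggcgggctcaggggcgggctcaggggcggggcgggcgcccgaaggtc
Ldha, chr7:46845554-46845853, plus strand: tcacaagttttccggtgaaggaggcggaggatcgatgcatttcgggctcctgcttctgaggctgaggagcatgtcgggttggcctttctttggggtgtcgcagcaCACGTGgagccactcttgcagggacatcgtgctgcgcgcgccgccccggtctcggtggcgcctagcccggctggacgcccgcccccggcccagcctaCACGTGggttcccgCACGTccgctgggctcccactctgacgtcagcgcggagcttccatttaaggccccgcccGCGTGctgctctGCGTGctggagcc
All 10 members have at least 1 such window, 15 windows in all. ACGTG stands in 9 of the 15 windows, from 8 members, against 19.6% of the 32851 windows of all genes. Among the 9 are overlapping windows of Aldoa that hold the same single site, at 126 and 202 bases before their starts. GCGTG stands in 6 of the 15 windows, from 5 members, against 32.4% of all windows. The Pfkp window holds 4 matches to GCGTG and none to ACGTG, and the Ldha window shown holds 2 E-boxes, at 145 and 48 bases before the start, where 7.15% of all windows hold at least 1. No member's window holds the GAS letters, which stand in 8.30% of all windows, and the ISRE core letters stand in 1 window, that of Pgk1, against 8.56% of all windows. These matches describe letters and were not tested as binding sites.

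Libraries held 15566122 to 37992642 counted fragments (median 23682133.5), and each member had between 911 and 162770 fragments in every library, which sets the counting error of each value. Levels below are normalised read counts in CPM, that is, counts relative to the library total after scaling by the trimmed mean of M values (TMM). All 8 macrophage markers were at a mean of 1 CPM or more, with a summed level of 4253 to 6904 CPM per library, although Adgre1 (F4/80) ranged from 9.27 to 294 CPM between libraries. The summed level of 4 T cell markers was at most 0.114 CPM, of 4 B cell markers at most 0.211 CPM, of 4 epithelial markers at most 0.143 CPM and of 4 fibroblast markers at most 2.92 CPM, the last almost all Pdgfra. IFNG-treated libraries stood apart from untreated ones in every clone for Irf1, Gbp2b and Cd274, with log2 fold changes of 4.82 to 9.86. Dicer1 was measured at 71.5 ± 1.3 CPM in untreated KO1 and 105 ± 3.65 CPM in untreated KO2 (SD, n = 3), and at 105 to 128 CPM in the means of the untreated WT clones. After IFNG, Dicer1 was at 75.0 ± 5.18 CPM in KO1 and 99.6 ± 4.34 CPM in KO2, and at 136 to 161 CPM in the means of the WT clones. The deleted element is intronic, so exon counts do not check the deletion.

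The members fell into an abundant and a scarce set. Per kilobase of annotated exon, the enzymes of the lower pathway and Aldoa stood far above the transporter, the hexokinases and phosphofructokinase in every group of libraries. In untreated WT2, the order of the level in CPM per kb was Pkm (582 ± 14.4, SD, n = 3), Pgk1 (465 ± 10.5), Aldoa (408 ± 21.1) and Ldha (325 ± 7.29), followed by Hk3 (25.9 ± 1.62), Hk1 (19.9 ± 0.359), Slc2a1 (17.5 ± 1.92), Pfkl (12.5 ± 0.143), Pfkp (10.3 ± 0.479) and Hk2 (9.29 ± 0.290). Only Hk1 and Slc2a1 were neighbours whose 3 libraries overlapped in that order. Pkm, Pgk1, Aldoa and Ldha kept this order in all 5 untreated clones, although the libraries of Pgk1 and Aldoa overlapped in WT1 and KO1. Slc2a1 moved from the seventh place in WT2 and WT3 to the fifth in WT1 (60.7 ± 4.11 CPM per kb), KO1 (42.0 ± 4.11) and KO2 (39.0 ± 3.64). The length used is that of all annotated exons of a gene together, which at 13.401 kb for Pfkp and 8.532 kb for Hk1 is longest for these genes and would lower the level per kilobase where a transcript holds only some of those exons. Fragments that align to more than 1 place were not counted, and intronless copies of several of these genes exist in the mouse genome, so fragments of Aldoa, Pgk1, Pkm and Ldha may have been lost and their levels are uncertain to that extent.

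**Figure D1:**
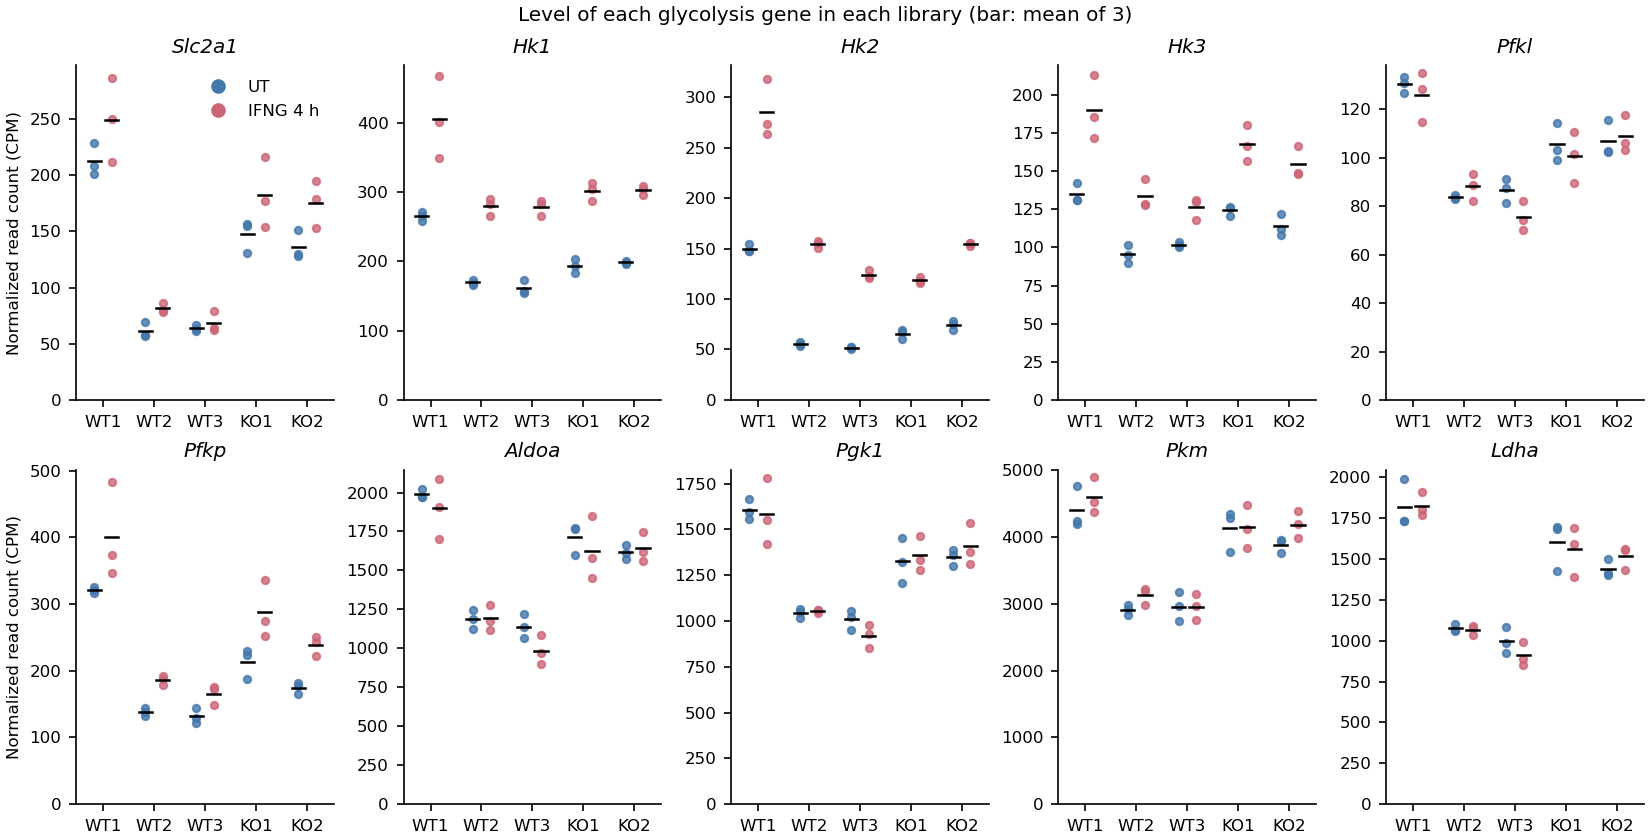
Normalized read count (CPM, linear axis from 0) of each glycolysis gene in each of the 30 libraries, by clone, with untreated libraries in blue and IFNG-treated libraries in red. Black bars are means of 3 libraries. The red points lie above the blue ones in every clone for Hk1, Hk2, Hk3 and Pfkp, whereas for Pfkl, Aldoa, Pgk1 and Ldha they overlap in every clone, and WT1 has the highest mean in every panel.

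The first question was how the pathway responded to IFNG in each clone. Over all 5 clones, 5 of the 10 members rose and none fell by edgeR's quasi-likelihood test with clone as a covariate (adjusted p under 0.05, adjusted over 14525 genes), where 24.9% of all genes tested rose and 28.3% fell. The members that rose were the glucose transporter, the 3 hexokinases and Pfkp. The median log2 fold change of the members was 0.17, beside -0.0081 over all genes tested. The 5 members that did not pass were Pfkl, Aldoa, Pgk1, Pkm and Ldha, which does not show that they were unchanged. Among these 10 genes, those past the threshold lay at the entry of the pathway and at Pfkp, a gene of the committed step. Other genes of the pathway, described below, passed as higher or as lower.

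Within clones, 4 members rose in WT1 (background 11.8% of 14088 genes rose and 9.47% fell), 6 in WT2 (17.4% of 13090 rose and 2227 of them, 17%, fell), 4 in WT3 with 2 that fell (18.6% of 13407 rose and 17.5% fell), 5 in KO1 (16.2% of 13757 rose and 13.2% fell) and 5 in KO2 (13.9% of 14038 rose and 13.2% fell). Hk1, Hk2, Hk3 and Pfkp rose in each of the 5 clones. Every treated library of a clone lay above every untreated library of that clone for these 4 genes. How many of all genes rose, or lay apart in this way, in each of the 5 clones was not counted. Neither statement therefore sets these genes apart from other genes.

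Hk2 (chr6:82725025-82774454, minus strand, build mm10) encodes the hexokinase that is inducible in many tissues, and it had the largest response of the 10. In WT1, Hk2 read 147, 148 and 154 CPM untreated and 264, 274 and 318 CPM after IFNG. In WT2, Hk2 read 53.8, 55.3 and 57.3 CPM untreated and 151, 155 and 157 CPM after IFNG. In WT3, Hk2 read 50.3, 52.2 and 52.8 CPM untreated and 121, 123 and 129 CPM after IFNG. In all 3 WT clones the treated libraries lay far above the untreated ones. In KO1, Hk2 read 60.3, 67.4 and 68.8 CPM untreated and 116, 118 and 122 CPM after IFNG. In KO2, Hk2 read 69.4, 75.4 and 78.0 CPM untreated and 152, 155 and 155 CPM after IFNG. In the KO clones the ranges were also far apart, and the treated libraries of KO1 overlapped with those of WT3. The log2 fold change of Hk2 over all clones was 1.11 (SE 0.046, adjusted p = 4.8e-21), a 2.15-fold rise. By clone it was 0.92 (SE 0.072, adjusted p = 2.6e-07) in WT1, 1.49 (SE 0.04, adjusted p = 2.5e-17) in WT2, 1.27 (SE 0.045, adjusted p = 7.2e-14) in WT3, 0.88 (SE 0.054, adjusted p = 1.5e-08) in KO1 and 1.05 (SE 0.05, adjusted p = 2.9e-10) in KO2.

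Of the 10 members, only Hk2 passed the edgeR test for a response that differed between clones. The test of clone by treatment, with 4 degrees of freedom over all 30 libraries, gave an adjusted p of 7.9e-06 for Hk2, whereas the adjusted p of the other 9 members lay between 0.612 and 0.951 (edgeR), and 3.68% of all 14870 genes passed it. The fold was smaller in WT1 and KO1, at 1.90 and 1.81 times the untreated mean, than in WT3 and WT2, at 2.40 and 2.78 times. On the linear scale the order was another one. The mean of Hk2 rose by 135 CPM in WT1, which had the highest untreated level, by 98.8 in WT2, 80.1 in KO2, 72.4 in WT3 and 52.9 in KO1. The clone with the largest gain in CPM thus had the second smallest fold. The difference of response by genotype did not pass the test for any member (0 of 10 by edgeR and 0 by DESeq2, 1 of 10 at an unadjusted p under 0.05), where 0.681% of 14682 genes had a larger and 0.341% a smaller response in KO clones. For Hk2 this difference was -0.25 (SE 0.083, adjusted p = 0.189) on the log2 scale. It passed without WT1, at -0.41 with an adjusted p of 3.4e-05, and without 1 of the IFNG-treated WT1 libraries, at an adjusted p of 0.0483. These tests by genotype count libraries as replicates, although the clones were 2 KO and 3 WT, or 2 and 2 without WT1. The log2 fold change of Hk2 in WT1 (0.92) lay between those in KO1 (0.88) and KO2 (1.05).

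Hk1 (chr10:62268855-62379908, minus strand) encodes the hexokinase found in most tissues, which binds mitochondria. In WT1, Hk1 read 258, 266 and 271 CPM untreated and 350.0, 401 and 468 CPM after IFNG. In WT2, Hk1 read 167, 169 and 173 CPM untreated and 266, 283 and 289.7 CPM after IFNG. In WT3, Hk1 read 155, 157 and 173 CPM untreated and 266, 284 and 287 CPM after IFNG. WT2 and WT3 were alike in both conditions, and WT1 was above them in both. In KO1, Hk1 read 183, 194 and 204 CPM untreated and 287, 305 and 313 CPM after IFNG. In KO2, Hk1 read 197, 198 and 201 CPM untreated and 295, 305 and 309 CPM after IFNG. The untreated KO clones lay between WT1 and the other WT clones, and after IFNG the libraries of KO1 overlapped with those of WT2. The log2 fold change of Hk1 over all clones was 0.67 (SE 0.03, adjusted p = 3e-20), 1.6-fold, with values of 0.60, 0.74, 0.80, 0.67 and 0.61 in WT1, WT2, WT3, KO1 and KO2.

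Hk3 (chr13:55005985-55021385, minus strand) encodes a hexokinase that is prominent in myeloid cells. In WT1, Hk3 read 131, 131 and 142 CPM untreated and 172, 186 and 213 CPM after IFNG. In WT2, Hk3 read 89.7, 95.1 and 102 CPM untreated and 128, 128 and 145 CPM after IFNG. In WT3, Hk3 read 101, 102 and 103 CPM untreated and 118, 129.8 and 131 CPM after IFNG. The smallest gap of these was in WT3, where the lowest treated library stood just above the untreated ones. In KO1, Hk3 read 121, 126 and 126 CPM untreated and 157, 166 and 179.9 CPM after IFNG. In KO2, Hk3 read 108, 112 and 122 CPM untreated and 148, 149 and 167 CPM after IFNG. Both KO clones showed a gap between the conditions wider than the range of their untreated libraries. The log2 fold change of Hk3 over all clones was 0.44 (SE 0.031, adjusted p = 1.5e-14), 1.35-fold, and ran from 0.32 in WT3 to 0.51 in WT2.

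Slc2a1 (chr4:119108711-119137983, plus strand) rose less, and its change did not pass the test in every clone. The fitted change was positive in every clone, with 0.12 as the lowest log2 fold change. The test of clone by treatment did not show that the response of Slc2a1 differed between clones (edgeR, adjusted p = 0.817). In WT1, Slc2a1 read 201, 208 and 229 CPM untreated and 212, 250 and 287 CPM after IFNG. In WT2, Slc2a1 read 56.8, 58.1 and 69.0 CPM untreated and 78.6, 80.2 and 86.0 CPM after IFNG. In WT3, Slc2a1 read 61.5, 62.8 and 66.9 CPM untreated and 62.4, 64.0 and 78.8 CPM after IFNG. The 2 conditions overlapped in WT1 and WT3 and were apart in WT2. In KO1, Slc2a1 read 131, 155 and 157 CPM untreated and 154, 177 and 217 CPM after IFNG. In KO2, Slc2a1 read 128, 130.0 and 151 CPM untreated and 153, 179 and 195 CPM after IFNG. They overlapped in KO1 and were apart in KO2. The log2 fold change over all clones was 0.29 (SE 0.051, adjusted p = 1e-05), 1.22-fold. It passed the test in WT2 at 0.44 (SE 0.059, adjusted p = 4.6e-06), in KO1 at 0.34 (SE 0.10, adjusted p = 0.0219) and in KO2 at 0.36 (SE 0.079, adjusted p = 0.00277), but was 0.22 (SE 0.092, adjusted p = 0.116) in WT1 and 0.12 (SE 0.069, adjusted p = 0.192) in WT3. The call in KO1 was lost with DESeq2 (adjusted p = 0.129) and when 1 of 2 single libraries was left out (adjusted p = 0.0947 without an untreated one, 0.0637 without a treated one). In WT1 the change passed without 1 IFNG-treated library (adjusted p = 0.0123).

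Of the phosphofructokinase genes, Pfkp (chr13:6579768-6648777, minus strand) rose, and Pfkl (chr10:77986947-78010083, minus strand) did not pass the test. In WT1, Pfkp read 317, 321 and 325 CPM untreated and 347, 373 and 484 CPM after IFNG. In WT2, Pfkp read 132, 139 and 145 CPM untreated and 179, 187 and 193 CPM after IFNG. In WT3, Pfkp read 122, 129 and 144 CPM untreated and 148, 173 and 176 CPM after IFNG. In WT1 and WT3 the lowest treated library was close to the highest untreated one. In KO1, Pfkp read 187, 223 and 230.4 CPM untreated and 253, 275 and 335 CPM after IFNG. In KO2, Pfkp read 164, 178 and 181 CPM untreated and 223, 244 and 251 CPM after IFNG. The KO clones again showed no overlap. The log2 fold change of Pfkp over all clones was 0.39 (SE 0.042, adjusted p = 5.8e-10), 1.31-fold. In WT1 it was 0.31 (SE 0.10, adjusted p = 0.0356), a call that was lost without any 1 of the 3 untreated libraries or without 1 treated library of that clone (adjusted p = 0.0566 to 0.0847). Pfkl had a log2 fold change over all clones of -0.04 (SE 0.035, adjusted p = 0.343), with a 95% interval of -0.11 to 0.03, and its libraries overlapped between the conditions in all 5 clones. In WT3 Pfkl was lower after IFNG, by edgeR, at -0.18 (SE 0.056, adjusted p = 0.0161), and that call was lost when any 1 of 4 of the 6 WT3 libraries was left out (2 untreated and 2 treated, adjusted p = 0.0596 to 0.089). In WT2, where it was 0.09 (SE 0.046, adjusted p = 0.145), it passed as higher without 1 treated library (adjusted p = 0.02). Pfkm, the muscle-type gene of the same family and no member of the set, fell over all clones by 0.16 on the log2 scale (SE 0.034, adjusted p = 0.00015, edgeR).

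The enzymes below phosphofructokinase are encoded by Aldoa (chr7:126795234-126800751, minus strand), Pgk1 (chrX:106187100-106203699, plus strand), Pkm (chr9:59656368-59679375, plus strand) and Ldha (chr7:46841475-46855627, plus strand), and none of them passed over all clones. For Aldoa the log2 fold change over all clones was -0.063 (95% interval -0.13 to 0.009), for Pgk1 -0.0078 (-0.072 to 0.056), for Pkm 0.057 (-0.00034 to 0.11) and for Ldha -0.02 (-0.084 to 0.044). Over all clones, Pkm passed as higher without any 1 of 3 libraries (adjusted p = 0.0418 to 0.0469), and Aldoa as lower without 1 treated KO1 library (adjusted p = 0.0409). Per clone, Pkm passed in WT2 at 0.12 (SE 0.034, adjusted p = 0.0084), and Aldoa was lower in WT3 at -0.20 (SE 0.058, adjusted p = 0.012). In WT2, Pkm read 2837, 2921 and 2980.4 CPM untreated and 2982, 3190.4 and 3219 CPM after IFNG. In WT3, Aldoa read 1064, 1135 and 1217 CPM untreated and 902, 972 and 1083 CPM after IFNG. The conditions were apart for Pkm in WT2 by 1 narrow gap and overlapped for Aldoa in WT3. The Pkm call in WT2 was lost in the fit over all 30 libraries (adjusted p = 0.269) and without 1 untreated or 1 treated library (adjusted p = 0.0594 and 0.0603), and the Aldoa call in WT3 with DESeq2 (adjusted p = 0.0995) and without 1 untreated or 1 treated library (0.0741 and 0.0892). Pgk1 and Ldha passed in no clone, with log2 fold changes from -0.12 to 0.061 and from -0.12 to 0.073. In WT3 both passed without 1 untreated library or 1 treated library (adjusted p = 0.00805 to 0.0449).

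**Figure D2:**
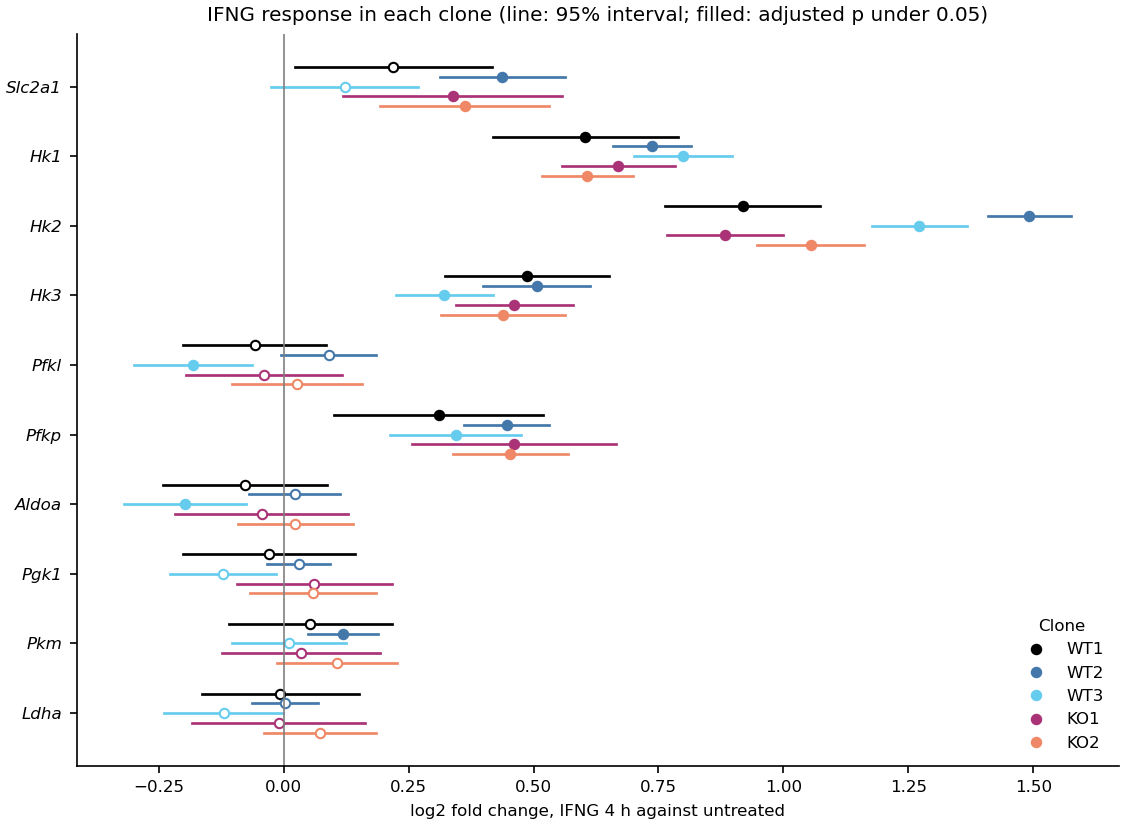
Log2 fold change of each glycolysis gene after 4 h of IFNG against untreated (x axis) in each of the 5 clones (colours), from 3 against 3 libraries. Lines are 95% intervals and filled points have an edgeR adjusted p under 0.05. Hk1, Hk2, Hk3 and Pfkp are filled in all 5 clones, and the Hk2 points spread from 0.88 in KO1 to 1.49 in WT2.

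The make-up of both families shifted with IFNG in every clone. Among the 3 hexokinase genes, on the scale of CPM per kb, the share of Hk2 was 16.9% ± 0.527 untreated and 27.2% ± 1.35 treated in WT2, and 27% ± 0.233 and 32.5% ± 0.831 in WT1 (SD, n = 3). It went from 15.7% ± 0.253 to 23.7% ± 1.51 in WT3, from 16.3% ± 0.496 to 19.7% ± 0.858 in KO1 and from 18.7% ± 1.09 to 25% ± 0.614 in KO2. Hk3 had the largest mean share in every group, and this share was lower after IFNG in all 5 clones, for instance going from 50.1% ± 0.863 to 39.1% ± 1.16 in WT3. The share of Hk1 stayed between 31.1% and 37.6% in all 30 libraries. The summed hexokinase level rose from 55.1 ± 1.95 to 94.9 ± 2.74 CPM per kb in WT2, and treated and untreated libraries did not overlap in this sum in any clone.

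Among Pfkl, Pfkp and Pfkm, the share of Pfkp went from 44.9% ± 0.776 to 51.8% ± 2.74 in WT1, 34.7% ± 1.84 to 41.7% ± 0.951 in WT2, and in WT3 it was 33.5% ± 1.67 untreated and 42.1% ± 2.25 treated. In KO1 it went from 41.8% ± 2.62 to 51.0% ± 1.70 and in KO2 from 36% ± 1.24 to 43.5% ± 1.84. Pfkl held the largest mean share in untreated WT2, WT3 and KO2 and Pfkp in untreated WT1, the means of both were close in untreated KO1, and after IFNG Pfkp had the larger mean in all 5 clones. Shares are descriptions and were not tested, and they depend on the exon lengths used.

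**Figure D3:**
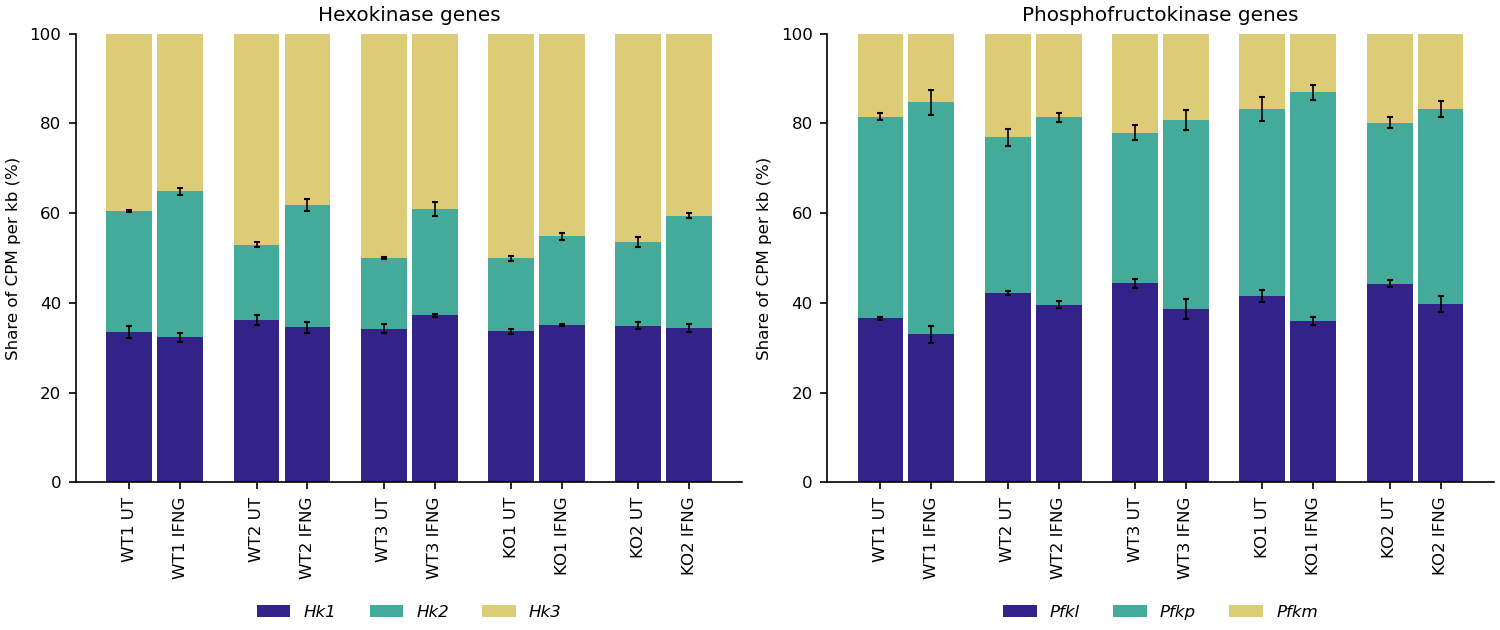
Share of each gene in its family's summed CPM per kb (y axis, percent) by clone and treatment, for the hexokinases (left) and the phosphofructokinases (right). Bars are means of 3 libraries and whiskers, drawn at the top of the lower 2 segments, are the SD of that segment's share. The Hk2 and Pfkp segments are taller after IFNG in every clone.

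Other genes of the pathway, taken from lists named by function, were set beside the members. Over all clones, 24.9% of all 14525 genes tested rose and 28.3% fell, which is the background for the counts of each list. Of 18 other glycolytic enzyme genes, 11 could be tested over all clones, and 1 rose and 4 fell with IFNG, with a median log2 fold change of -0.071. Pgam1, phosphoglycerate mutase, rose by 0.083 (SE 0.029, adjusted p = 0.0142), while Gpi1, phosphoglucose isomerase, was at -0.12 (SE 0.028, adjusted p = 0.00057) and Eno3, an enolase, at -0.14 (SE 0.037, adjusted p = 0.00214). None of the 11 passed in the same direction in all 5 clones. Of 13 other glucose and lactate transporter genes, 9 were tested, 1 rose and 4 fell. Slc2a6 rose by 0.25 (SE 0.038, adjusted p = 5e-07), whereas Slc2a3, which encodes the transporter GLUT3, was at -0.24 (SE 0.028, adjusted p = 3.5e-09), opposite in sign to Slc2a1. Slc16a3, which encodes the lactate exporter MCT4, was at -0.32 (SE 0.10, adjusted p = 0.00821) from a low level of 0.732 to 3.23 CPM in the group means. Slc2a9 was at -0.066 (SE 0.027, adjusted p = 0.0421).

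Of 19 regulators of glycolytic flux, 17 were tested, 9 rose and 4 fell over all clones, where 24.9% of all genes rose and 28.3% fell. Txnip, which restrains glucose uptake, rose in all 5 clones by 0.41 to 0.72 on the log2 scale, and Pdk3, a kinase that switches off pyruvate dehydrogenase, by 0.23 to 0.37. Pfkfb3, which makes the activator of phosphofructokinase, was lower in all 5 clones, at -0.54 to -0.29. Myc was at -0.43 and Pdk2 at -0.42 over all clones, and Arrdc4, a relative of Txnip, at 0.35 (adjusted p = 2.7e-07, 1.1e-05 and 0.0028, edgeR). The genes of HIF-1 itself were higher, Hif1a by 0.15 (SE 0.026, adjusted p = 3.6e-06) and Arnt by 0.22 (SE 0.02, adjusted p = 2.7e-11), both named here after their values were seen.

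Of 17 known HIF targets outside glycolysis, 15 were tested, 2 rose and 4 fell over all clones, with a median of -0.048. The background for this and the next 2 lists is again 24.9% of all genes that rose and 28.3% that fell. Ddit4, an inhibitor of mTOR signalling, was lower in all 5 clones at -1.0 to -0.61, and Mxi1, a Myc antagonist, at -0.53 to -0.41. P4ha1, a collagen prolyl hydroxylase subunit, rose by 0.18 (SE 0.023, adjusted p = 5e-08). Ak4, an adenylate kinase, had a fitted difference of 1.66 at a level of 0.035 to 1.25 CPM, too low for its size to be read. Of 7 genes of the pentose phosphate pathway, which branches off after hexokinase, 1 rose (Rpe, 0.18) and 4 fell, among them G6pdx at -0.12 and Pgd at -0.11 (adjusted p = 5.4e-06, 3.4e-06 and 2.3e-06, edgeR). Of 24 genes of pyruvate entry and the TCA cycle, 3 rose and 4 fell, with a median of -0.0064, and the largest change was that of Fh1, fumarase, at 0.20 (SE 0.024, adjusted p = 3.4e-09).

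The second question was how much the clones differed before treatment. All 10 members differed in untreated level between the 5 clones (edgeR, adjusted p from 8.6e-17 to 2.2e-08), but so did 73.2% of the 14467 genes tested, so the count of calls does not set the members apart. The order of the clones was alike across members. WT1 had the highest mean of all 10 members, where it was highest for 24.9% of 12345 genes of at least 1 CPM, and WT2 and WT3 had the 2 lowest means of all 10, where this held for 23.2% of those genes. The ratio of the highest to the lowest clone mean ran from 1.41 for Hk3 to 3.47 for Slc2a1.

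For Slc2a1 the untreated level was 213 ± 14.4 CPM in WT1, 147 ± 14.4 in KO1, 137 ± 12.8 in KO2, 63.7 ± 2.80 in WT3 and 61.3 ± 6.74 in WT2 (SD, n = 3). KO1 and KO2 overlapped, as did WT3 and WT2, and the other neighbours did not. Hk2 was the member in which WT1 stood farthest above the rest, at 149.8 ± 3.86 CPM, followed by KO2 at 74.2 ± 4.43, KO1 at 65.5 ± 4.58, WT2 at 55.5 ± 1.73 and WT3 at 51.8 ± 1.32. No neighbours overlapped in that order. Pfkp was at 321 ± 3.92 CPM in WT1 and at 132 ± 11 CPM in WT3, with KO1 (214 ± 23) and KO2 (174 ± 8.73) between and apart from each other. For Aldoa, Hk1, Hk3, Pfkl, Pgk1 and Ldha the order was WT1, then the 2 KO clones, which overlapped with each other, then WT2 and WT3, which also overlapped. For Pkm, at 4401 ± 310.3 CPM in WT1, WT1 overlapped with KO1 and KO1 with KO2, and the libraries of KO2 and WT3 were apart. After IFNG, WT1 again had the highest mean of all 10 members and WT2 and WT3 the 2 lowest of 9, the exception being Hk2, for which the lowest means were those of KO1 and WT3.

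The HIF target list had a like order in its sum, and in part gene by gene. Untreated WT2 and WT3 had the 2 lowest means for 8 of its 13 genes at 1 CPM or more, against 10 of 10 members. Of 13 such genes at 1 CPM or more, 12 were highest in untreated WT1, and their summed level, over all 17 genes, was 1432 ± 90.1 CPM in WT1, 741 ± 55.2 in KO2, 696 ± 61.7 in KO1, 572 ± 29.9 in WT3 and 556 ± 18.9 in WT2 (SD, n = 3). Of 10 other glycolytic enzyme genes at 1 CPM or more, 7 were highest in untreated WT1, against 0 of 7 genes of the pentose phosphate pathway and 3 of 24 of pyruvate entry and the TCA cycle. Over all 12345 genes at 1 CPM or more, 24.9% were highest in untreated WT1, and 23.2% had their 2 lowest means in WT2 and WT3. The summed level of the macrophage markers was lowest in WT1, at 4324 ± 82.8 CPM untreated, and 5261 to 6667 CPM in the means of the other untreated clones. The part of either in the levels of the members was not tested. Genes within 10 Mb of a member did not share its pattern for 9 of the 10 members, their median difference from the mean of the 5 clones lying between -0.081 and 0.055 on the log2 scale of CPM + 0.5 in every clone, where WT1 stood 0.25 to 0.94 above for those members. For Hk2 the median of its 101 neighbours on chromosome 6 was 0.10, 0.13 and 0.12 in the WT clones and -0.14 and -0.17 in the KO clones, beside 1.03, -0.40, -0.49, -0.16 and 0.02 for Hk2 itself.

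**Figure D4:**
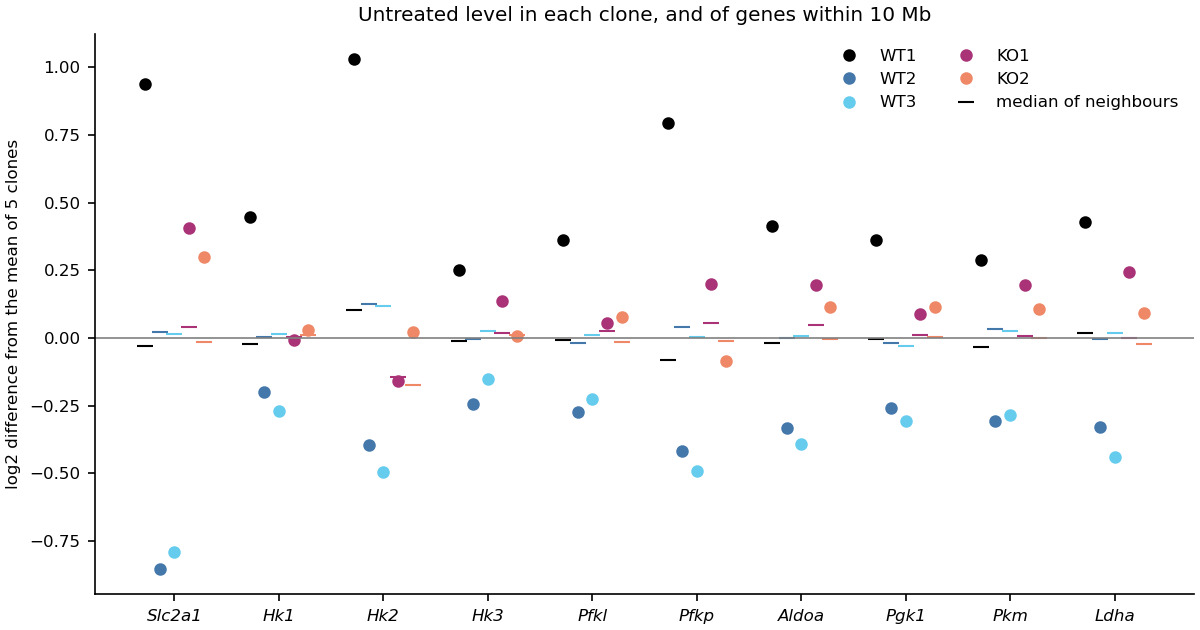
Untreated level of each glycolysis gene in each clone as the log2 difference from the mean of the 5 clones (points), with the median of the genes within 10 Mb of it on the same chromosome (dashes), on the scale of log2(CPM + 0.5). WT1 is the highest point for every gene and WT2 and WT3 the lowest, while the dashes stay near 0, except around Hk2, where they are above 0 in WT clones and below 0 in KO clones.

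The third question was whether KO clones differed from WT clones. With all 5 clones, none of the 10 members passed in untreated cells by edgeR or by DESeq2 (0 of 10 at an unadjusted p under 0.05), where 12.2% of 13886 genes were higher and 14.4% lower in KO. None passed after IFNG either (0 of 10 by both tools, 1 of 10 at an unadjusted p under 0.05), where 10.9% of 13637 genes were higher and 1773 of them (13%) lower. These fits have no term for clone and treat the 3 libraries of a clone as separate replicates. The spread between clones of a genotype is in their standard errors, but the libraries are counted as if each were its own clone. Their p-values are therefore not those of a comparison of 2 KO with 3 WT clones. With counts summed per clone (2 KO and 3 WT), 0 of 10 members and 1 gene in all passed in each condition, with an adjusted p of 0.858 for Slc2a1 and 0.852 for Hk2 in untreated cells (edgeR). The log2 difference of Slc2a1 in untreated cells was 0.32 (SE 0.34, adjusted p = 0.524), with a 95% interval of -0.41 to 1.05, and that of Hk2 was -0.30 (SE 0.29, adjusted p = 0.478), with an interval of -0.93 to 0.32. WT1 lay above and WT2 and WT3 below the KO clones in the untreated mean of every member. Leaving out WT1 therefore set the direction of the untreated difference in advance. Whether members passed depended on WT1. The p-values without WT1 again count libraries as replicates, and counts summed per clone were not fitted without WT1. Without it, in a fit of the same kind over the libraries of 2 KO and 2 WT clones, all 10 members were higher in KO clones in untreated cells, where 24.1% of 13552 genes were higher and 23.7% lower, and 9 of 10 were higher after IFNG, where 22.4% of 13382 genes were higher and 22.4% lower. Slc2a1 was then at 1.18 (SE 0.064, adjusted p = 3e-09) untreated and 1.25 (SE 0.10, adjusted p = 1.2e-07) after IFNG. The exception was Hk2 after IFNG, at -0.032 (SE 0.095, adjusted p = 0.814). The sign of Hk1, Hk2 and Pfkp in untreated cells was negative with WT1 and positive without it. The median over the members was 0.42 untreated and 0.47 after IFNG without WT1, and 0.11 and 0.17 with WT1, where the medians over all genes tested were -0.0004 and 0.00097. Leaving out WT3 in turn made Hk2 after IFNG lower in KO clones (log2 difference -0.69, adjusted p = 0.0224). Pkm passed without 1 untreated WT1 library in untreated cells and without 1 treated WT1 library after IFNG (adjusted p = 0.0378 and 0.0439).

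**Figure D5:**
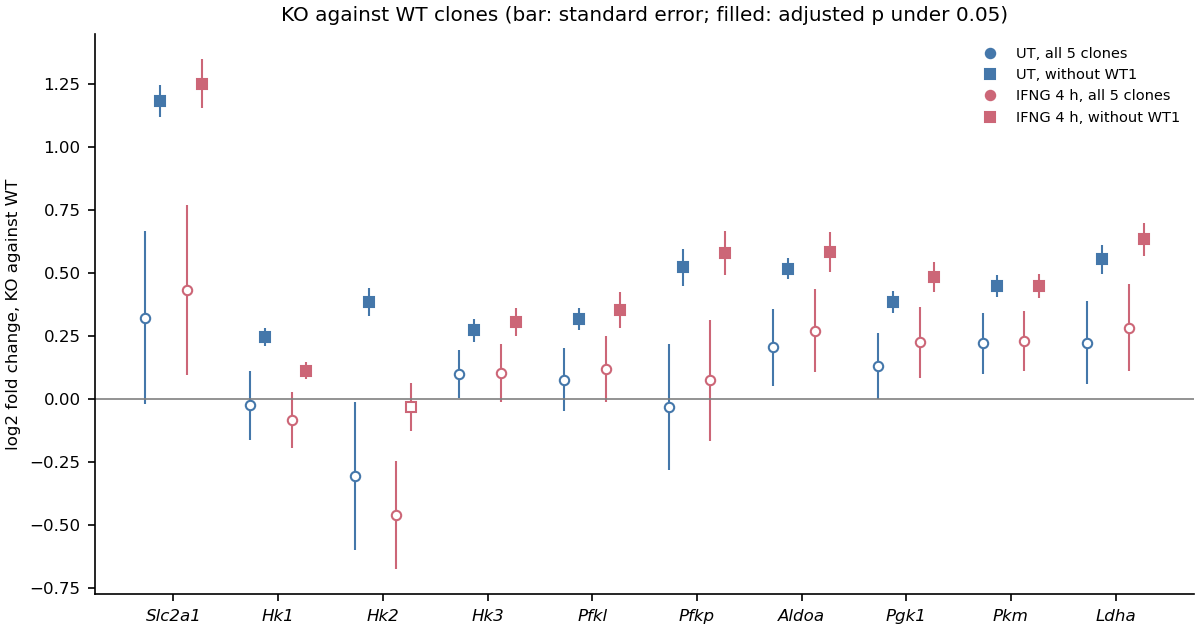
Log2 fold change of each glycolysis gene in KO against WT clones (y axis) in untreated (blue) and IFNG-treated (red) libraries, with all 5 clones (circles, 6 KO and 9 WT libraries) and without WT1 (squares, 6 KO and 6 WT libraries). Bars are standard errors and filled symbols have an edgeR adjusted p under 0.05. No circle is filled, and all squares but that of Hk2 after IFNG are.

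The genes whose pattern was most like that of each member were found by Pearson's r of log2(CPM + 0.5) over the 10 means of clone and treatment, among 8904 genes of at least 10 CPM. These means share clones and libraries, so r is a description. For Aldoa the 3 most alike were Ldha (0.994), Anxa2 (0.994), Eno1 (0.992), for Ldha Anxa2 (0.997), Aldoa (0.994), Ndufa6 (0.993), for Pgk1 Eno1 (0.995), Gm4735 (0.991), Aldoa (0.991) and for Pfkl Bsg (0.989), Gm4735 (0.987), Eno1 (0.985). Aldoa and Ldha named each other, as did Slc2a1 and Pkm below, and Eno1, an enolase outside the set, was near Aldoa, Pgk1 and Pfkl. For Pkm they were Mir5107 (0.995), Gm6560 (0.992), Slc2a1 (0.992) and for Slc2a1 Znrd1 (0.995), Pkm (0.992), P4ha1 (0.986). For Hk2 they were Hk1 (0.972), Nudt9 (0.97), Coq2 (0.968), for Hk1 Hivep1 (0.991), Dnajc12 (0.988), Bst2 (0.981), for Hk3 Atg2a (0.987), H2-Q4 (0.981), Nfkbib (0.978) and for Pfkp, of which not all are reported here, Zwint (0.977) and Ptgs2 (0.974).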

How the data were processed

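Poly(A) RNA-seq counts of 30 libraries were analysed. The authors trimmed the reads, aligned them to mm10 with HISAT2 2.1.0, kept uniquely aligned fragments, merged technical replicates (SAMtools 1.10) and counted fragments per gene over exons, by strand, with featureCounts 1.6.2, and deposited raw counts. A fragment that overlaps several genes was counted for each. Per the labels, deepTools 3.0.1 and DESeq2 1.26.0 were also used. The labels name different RNA inputs and adapters without assigning them to libraries, so such batches could not be checked.

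Groups were taken from the labels, except that the columns headed wtc1 and wtc3 were taken as WT2 and WT3 from the deposited tables of single clones, since the labels do not pair these names. Low counts were removed by edgeR's filterByExpr, and libraries were scaled by TMM. Tests used edgeR 4.0.16 (quasi-likelihood, R 4.3.3) with Benjamini-Hochberg adjustment over all genes tested and a threshold of 0.05. Standard errors were taken from the F statistic. Response tests were fitted per clone, over all clones with clone as a covariate, and as interactions. KO was compared with WT within each treatment, with libraries as replicates and no term for clone. DESeq2 1.42.0, other scaling and filters, and leaving out libraries or clones were alternatives. The fits of the response in WT2, of the response over all clones and of clone by treatment were tested on simulated libraries. Those libraries were drawn independently of each other, and the fits of KO against WT and of genotype by treatment were not simulated. Replicate pairs differed by more than sampling noise (chi-square per degree of freedom 2.02 to 21.6). Another identifier that maps to Aldoa, with 508 counts over 30 libraries, was left out.

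The members and gene lists were chosen with earlier results of these data known. The genes named from other lists are those past the threshold in the same direction in all 5 clones, and the 2 largest and 2 smallest changes over all clones per list among those past it. Levels per kilobase used the exon lengths in the deposited file. Results for some genes are not reported here.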

Additional observations from a re-analysis of the deposited data

Results flagged for a closer look

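The IFNG response of Hk2 differed between the 5 clones (adjusted p = 7.9e-06, edgeR, clone by treatment over 30 libraries). Every clone rose, from 0.88 in KO1 to 1.49 in WT2 on the log2 scale.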

How the results depend on the processing

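Of the counts of members called under the alternatives, 237 stayed within 1.5 times the reported count and 10 did not. The number of members whose response differed between clones was 2 (Slc2a1 and Hk2) with no filter on low counts, where 919 of 29004 genes passed. By genotype it was 1 (Hk2) with no filter, where 384 of 29004 genes passed, and 1 without WT1, where 570 of 14399 passed. By genotype it was also 0 to 1 when single libraries were left out. For KO against WT without WT1 it was 10 untreated, where 6472 of 13552 genes passed, and 9 after IFNG, where 5992 of 13382 passed. Without WT3 it was 1 after IFNG, where 2451 of 13489 genes passed. For KO against WT it was 0 to 1 in both conditions when single libraries were left out. With no term for clone, 3 members rose over all clones (Hk1, Hk2 and Hk3), where 4687 of 13651 genes rose or fell. Without WT1 the sign reversed in untreated cells for Hk1 (0.25), Hk2 (0.38) and Pfkp (0.52), and after IFNG for Hk1 (0.11). The cause was not tested. Of the values of single members, 2411 kept their direction and side of the threshold, 36 newly passed, 19 no longer passed and 4 reversed. No paired analysis was possible because the columns carry no replicate numbers, so the replicate block was not run.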
